A study of Homo sapiens with 4 samples.

Results

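The genes described here are 10 members of the gp130 cytokine pathway, chosen by symbol from a list drawn up by role: the ligands IL6, IL11 and LIF, the receptor chains IL6R, IL6ST, OSMR and LIFR, the kinase JAK1, the transcription factor STAT3 and its feedback inhibitor SOCS3. All 10 symbols had 1 row each among the 29437 genes of the deposited tables. Polyadenylated RNA was sequenced from CAL27 cells, an established human line of oral squamous cell carcinoma, in 2 groups of 2 libraries each. The CCL20 group is labelled as CAL27 given a lentivirus to overexpress CCL20, a chemokine that attracts leukocytes bearing the receptor CCR6, and the negative control group is CAL27 under that label alone, with no vector named for it. Both groups were harvested after 48 hours without any further agent, and the comparison asks how expression differs between the cells labelled as overexpressing CCL20 and the control. The labels do not say whether the cells given the lentivirus were 1 clone or a pool, or whether replicates came from separate cultures, so the p-values below rest on the spread between libraries.

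Cytokines of this family signal through a shared receptor chain, gp130, the product of IL6ST. Interleukin-6 and interleukin-11 first bind a private chain, which for interleukin-6 is IL6R, whereas LIF assembles gp130 with LIFR, and oncostatin M assembles it with OSMR or LIFR. Receptor-bound JAK kinases, JAK1 above all, then phosphorylate STAT3, which enters the nucleus and induces genes that include SOCS3, and SOCS3 binds gp130 and shuts the kinases off. In squamous carcinoma this pathway is known as a link between inflammatory cytokines and tumour cell survival.

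Libraries held 13681862 to 17860695 counts in total, and a member had between 285 and 4612 counts in a library. CCL20 itself, the check of the labels, had 372 and 303 counts in the CCL20 libraries, against 188 and 202 in the control libraries. Across the whole table, genes with short mRNAs tended to be higher with CCL20 and genes with long mRNAs lower (Spearman rho -0.73 between length and log2 fold change over the 10572 coding genes tested, which are not independent replicates). The decile of shortest mRNAs had a median log2 fold change of 0.98, and the decile of longest mRNAs one of -0.73. For this reason each result is given in 2 forms, from edgeR's quasi-likelihood test as it stands and from the same test with a length term, an offset that removes from each library a smooth curve fitted to mRNA length over coding genes. With the length term, CCL20 had a log2 fold change of 0.06 (edgeR adjusted p = 0.916) in place of 0.95 (edgeR adjusted p = 0.0143). By that fit, with a 95% interval of -0.50 to 0.61, the difference in CCL20 was about that of other genes with mRNAs as short as its 800 nt. With the length taken instead from the union of exons, the log2 fold change of CCL20 was 0.49 (edgeR adjusted p = 0.171). CCL20 passed with neither length, so with a length term the tables do not show overexpression. The libraries are called CCL20 libraries by their labels. The 8 squamous epithelial markers summed to 959 and 1225 FPKM in the CCL20 libraries and to 899 and 969 FPKM in the controls. Of the 7 tested, 3 were higher (KRT17, EPCAM and SFN) and 1 was lower (TP63), where 16.5% and 15.7% of all genes tested were. With the length term 0 of the 7 passed, where 6.82% of coding genes did. KRT14, with a mean of 0.92 FPKM, was not tested. The 6 fibroblast markers summed to 2.93 and 3.51 FPKM in the CCL20 libraries and to 4.72 and 5.58 FPKM in the controls, with COL3A1 and DCN under 0.1 FPKM throughout. Most of this was COL1A1, at 1.65 and 2.45 FPKM with CCL20 and 3.09 and 3.70 FPKM in the controls. The leukocyte markers measured summed to 2.37 and 2.77 FPKM in the CCL20 libraries and to 3.85 and 3.49 FPKM in the controls, with PTPRC and CD68 under 0.1 FPKM throughout. Most of this was CSF1R, at 1.68 and 1.92 FPKM with CCL20 and 2.98 and 2.52 FPKM in the controls. The 4 endothelial markers summed to 5.27 and 5.10 FPKM in the CCL20 libraries and to 8.81 and 8.23 FPKM in the controls, nearly all of it CDH5, with PECAM1 and KDR under 0.1 FPKM. COL1A1, CSF1R and CDH5 were each the only tested marker of their list. With the length term their log2 fold changes were 0.10, -0.13 and -0.22 (edgeR adjusted p = 0.868, 0.769 and 0.460). The part of these marker differences in the results was not tested. The cells are labelled as 1 line, CAL27. In its bulk RNA, fewer cells with a transcript and less of it per cell cannot be told apart.

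Promoter sequence is shown for 3 members, IL6, IL11 and LIFR. Of the members searched, they alone had a match to any of the 3 motifs, NF-kB, AP-1 and STAT. IL6 and IL11 were also the members with positive fold changes, and LIFR was the one with the deepest fall. The sequences are RefSeq's on GRCh38.p14, where 9 of the 10 members had a promoter listed, all but LIF. Each stretch of 120 bases runs 5′ to 3′ on the gene's strand, and the capitals mark the match found on either strand to the NF-kB motif in IL6, the AP-1 motif TGANTCA in IL11 and the STAT motif TTCNNNGAA in LIFR.
IL6, chr7:22727080-22727199, plus strand: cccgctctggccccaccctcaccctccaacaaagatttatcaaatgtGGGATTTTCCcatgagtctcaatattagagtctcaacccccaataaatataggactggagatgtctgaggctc
IL11, chr19:55370464-55370583, minus strand: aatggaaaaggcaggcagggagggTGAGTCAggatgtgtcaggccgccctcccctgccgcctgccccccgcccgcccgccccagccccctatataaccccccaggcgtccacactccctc
LIFR, chr5:38595486-38595605, minus strand: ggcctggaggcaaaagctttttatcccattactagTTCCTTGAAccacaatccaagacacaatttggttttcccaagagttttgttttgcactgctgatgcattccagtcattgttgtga
Counted back from the RefSeq transcription start, with the base before it at -1, the IL6 match begins at -73, the IL11 match at -96 and the LIFR match, upstream of the outermost of its listed starts, at -165. Among the 35116 RefSeq promoters, the 250 bases before the start held the NF-kB motif in 6.88%, the AP-1 motif in 6.57% and the STAT motif in 6.57%. The 14 promoter windows of the 9 members gave 4 matches in all, the fourth being a STAT match in a second LIFR window. The windows follow RefSeq's starts, which can differ from the gene positions given below. The IL6 and LIFR stretches lie within those gene positions. For SOCS3 the bases just upstream of its position were in no window, so a motif there was not searched for. A letter match describes the sequence and says nothing on whether a factor was bound in these cells.

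IL6 rose in the libraries labelled CCL20, while all 4 receptor chains, JAK1 and STAT3 fell; IL11, LIF and SOCS3 did not pass the test. So 7 of the 10 members passed, where 32.2% of the 12168 genes tested did: 1 was higher, where 16.5% of genes were, and 6 were lower, where 15.7% were (edgeR adjusted p under 0.05). The members, like the lists below, were chosen with earlier results of these data known. The shares beside them therefore describe the set and do not test it. Without control replicate 1 the number of members called was 0 and without control replicate 2 it was 1, LIFR, while without CCL20 replicate 1 it was 8 and without CCL20 replicate 2 it was 9; in each of these fits the lone library takes its spread from the other pair. Over the members the median log2 fold change was -0.57, against 0.0019 over all genes tested. With the length term 0 of the 10 members passed, where 6.82% of the 10572 coding genes did (3.63% higher and 3.19% lower), and 1 member, LIFR, had an unadjusted p under 0.05. The members' median was then -0.19, against 0.03 over the coding genes. In FPKM, 2 members were higher and 8 were lower in both CCL20 libraries than in both control libraries, where 25.8% of genes tested were higher and 46.9% lower by that rule.

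Among the ligands, IL6 (ENSG00000136244; GRCh38 chromosome 7, 22725884 to 22732002, plus strand) encodes interleukin-6, the founding cytokine of the family. It had 874 and 650 counts in the CCL20 libraries, against 453 and 440 in the controls, which correspond to 27.5 and 18.6 FPKM with CCL20 and to 16.0 and 11.9 FPKM in the controls. The lower CCL20 library lay above the higher control by less than the 2 CCL20 libraries differed from each other. Here and below, folds and log2 fold changes come from the edgeR fit unless another is named. Its TMM factors are not part of FPKM, which is scaled by library total. IL6 was 1.90-fold higher in this fit, at a log2 fold change of 0.92 (SE 0.23, edgeR adjusted p = 0.0194), against 1.65-fold in mean FPKM. The length term, whose curve was worth 0.65 at the 1354.5 nt of the IL6 mRNA, left 0.29 with a 95% interval of -0.29 to 0.87 (edgeR adjusted p = 0.529). The call also ended with limma on log2(FPKM + 1), at an adjusted p of 0.0676, and on a TPM scale (0.45, edgeR adjusted p = 0.233). Of its exonic bases 428 are shared with the antisense gene AC073072.1, which had 13 to 30 counts per library; the strand setting of the counting is not given, so reads of that stretch cannot be assigned with certainty.

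IL11 (ENSG00000095752; chromosome 19, 55364389 to 55370463, minus strand) encodes interleukin-11, a cytokine that signals through IL11RA and gp130. Its level was 14.0 and 16.4 FPKM in the CCL20 libraries, against 12.3 and 13.2 FPKM in the controls. All 4 values lay close together, with a gap between the groups of less than either group's own spread. The log2 fold change was 0.46 with a 95% interval of 0.03 to 0.90 (edgeR adjusted p = 0.0937), and with the length term it was 0.01, with an interval of -0.37 to 0.40 (edgeR adjusted p = 0.975). Without CCL20 replicate 1 it was 0.61 and passed (edgeR adjusted p = 5.2e-05). On a TPM scale its direction turned, at a log2 fold change of -0.04 (edgeR adjusted p = 0.871).

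LIF (ENSG00000128342; chromosome 22, 30240447 to 30246851, minus strand) encodes leukemia inhibitory factor. Its level was 7.89 and 10.0 FPKM in the CCL20 libraries, against 13.8 and 14.0 FPKM in the controls, so the groups did not overlap and the controls were nearly equal. The log2 fold change was -0.42 with a 95% interval of -0.87 to 0.04 (edgeR adjusted p = 0.133). It passed on scales without TMM factors, scaled by total count at -0.63 (edgeR adjusted p = 0.0346) and on the TPM scale at -0.93 (edgeR adjusted p = 0.00997). Without CCL20 replicate 2 it was -0.66 and passed (edgeR adjusted p = 1.22e-05). The length term left -0.15 (edgeR adjusted p = 0.692). The estimates of LIF and IL6 had opposite signs, though the 95% interval of LIF included 0. The LIF mRNA of 3969 nt is the longest of the 3 ligands.

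**Figure D1:**
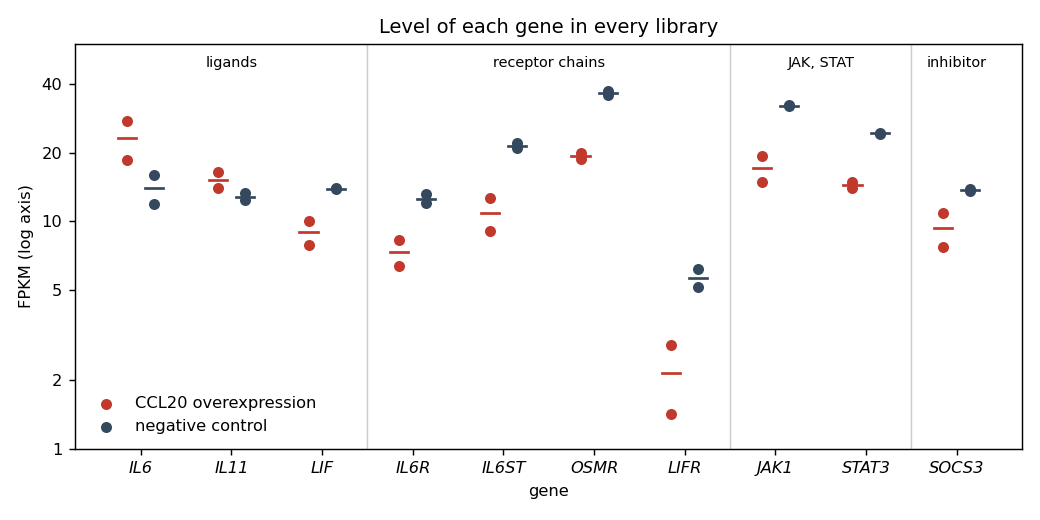
FPKM of the 10 genes in each library on a log axis, with 1 point per library and a bar at the mean of the 2 libraries of the group, CCL20 overexpression to the left of the negative control. IL6 and IL11 sit above the controls in both CCL20 libraries, the other 8 genes sit below, and LIFR is lowest in both groups, at 2.15 and 5.64 FPKM on average.

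The receptor chains all fell. IL6ST (ENSG00000134352; chromosome 5, 55935095 to 55994993, minus strand), the gene of the shared chain gp130, had 12.6 and 9.06 FPKM in the CCL20 libraries, against 21.9 and 20.9 FPKM in the controls. Each CCL20 library was far below both controls, and the fall was 1.73-fold, a log2 fold change of -0.79 (SE 0.18, edgeR adjusted p = 0.0155). The IL6ST mRNA of 8776 nt is the longest of the 10, the length curve there was worth -0.70, and with the length term the log2 fold change was -0.08 with a 95% interval of -0.43 to 0.27 (edgeR adjusted p = 0.781). IL6ST shares 797 exonic bases with the antisense gene AC008914.1, for which no counts are listed.

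IL6R (ENSG00000160712; chromosome 1, 154405193 to 154469450, plus strand), the private chain for interleukin-6, had 8.25 and 6.36 FPKM in the CCL20 libraries, against 13.1 and 12.0 FPKM in the controls. The groups did not overlap, and the fall was 1.50-fold (log2 fold change -0.58, edgeR adjusted p = 0.0364), the smallest of the 4 receptor falls. Without a filter on low values the adjusted p was 0.0562 in edgeR, with edgeR's own filter it was 0.0563, and with the length term the log2 fold change was -0.06 with an interval of -0.42 to 0.29 (edgeR adjusted p = 0.839). A count per gene does not separate the mRNA of the membrane receptor from that of a soluble form.

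OSMR (ENSG00000145623; chromosome 5, 38845858 to 38945596, plus strand), a partner chain of gp130 for oncostatin M, had 19.9 and 18.8 FPKM in the CCL20 libraries, against 37.3 and 36.0 FPKM in the controls. Both groups were tight, and the log2 fold change was -0.72 (SE 0.16, edgeR adjusted p = 0.0125), the lowest adjusted p of the 10 genes. With the length term it was -0.23 with an interval of -0.57 to 0.11 (edgeR adjusted p = 0.400). OSMR shares 229 exonic bases with RICTOR on the other strand, which had 335 to 1135 counts per library.

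LIFR (ENSG00000113594; chromosome 5, 38474963 to 38608354, minus strand), the chain that binds LIF, had 523 and 285 counts in the CCL20 libraries, against 996 and 1092 in the controls. These were 2.87 and 1.42 FPKM with CCL20 and 6.14 and 5.15 FPKM in the controls. The 2 CCL20 libraries differed by more from each other, relative to their level, than those of any other member, and both lay below the controls. LIFR fell 2.31-fold, a log2 fold change of -1.21 (SE 0.28, edgeR adjusted p = 0.0164). The log2 fold change was -0.81 without CCL20 replicate 2 and -1.73 without CCL20 replicate 1. The length term left -0.60, with an interval of -1.16 to -0.04 and an edgeR adjusted p of 0.180, the largest log2 fold change that remained among the 10. With the length term and 1 library left out, it ranged from -1.01 to -0.28. LIFR shares 629 exonic bases with the antisense gene LIFR-AS1, which had 11 to 17 counts per library.

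Downstream of the receptors, JAK1 and STAT3 fell, and SOCS3 did not pass the test. JAK1 (ENSG00000162434; chromosome 1, 64833229 to 64966504, minus strand), the kinase bound to gp130, had 19.4 and 14.9 FPKM in the CCL20 libraries, against 32.3 and 32.0 FPKM in the controls. Its groups lay far apart beside their spread, with a log2 fold change of -0.71 (SE 0.17, edgeR adjusted p = 0.0173), and with the length term it was -0.29 with an interval of -0.63 to 0.06 (edgeR adjusted p = 0.291).

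STAT3 (ENSG00000168610; chromosome 17, 42313324 to 42388568, minus strand) had 14.8 and 13.9 FPKM in the CCL20 libraries, against 24.0 and 24.5 FPKM in the controls. Both pairs were tight, and the fall was 1.46-fold, a log2 fold change of -0.55 (SE 0.16, edgeR adjusted p = 0.0298). Leaving out any 1 library moved this estimate only between -0.57 and -0.53, but without a filter on low values the adjusted p was 0.0532 in edgeR. The length curve was worth -0.24 at its 3909.5 nt, and the log2 fold change with the length term was -0.30, with an interval of -0.64 to 0.04 (edgeR adjusted p = 0.259). These are mRNA levels, and the phosphorylation that activates STAT3 was not measured.

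SOCS3 (ENSG00000184557; chromosome 17, 78356778 to 78360077, minus strand), the inhibitor that STAT3 induces, had 7.67 and 10.9 FPKM in the CCL20 libraries, against 13.5 and 13.8 FPKM in the controls. Both CCL20 libraries were below the controls, but they differed from each other by 1.42-fold, and the log2 fold change of -0.34 had a 95% interval of -0.87 to 0.18 (edgeR adjusted p = 0.269). Its mRNA of 2734 nt lies where the length curve crosses 0, at 0.02, so the length term left the estimate at -0.36 (interval -0.86 to 0.13, edgeR adjusted p = 0.350). Without CCL20 replicate 1 the log2 fold change was -0.08, and without CCL20 replicate 2 it was -0.68 and passed (edgeR adjusted p = 6.46e-05). It also passed on the TPM scale (-0.86, edgeR adjusted p = 0.0183).

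**Figure D2:**
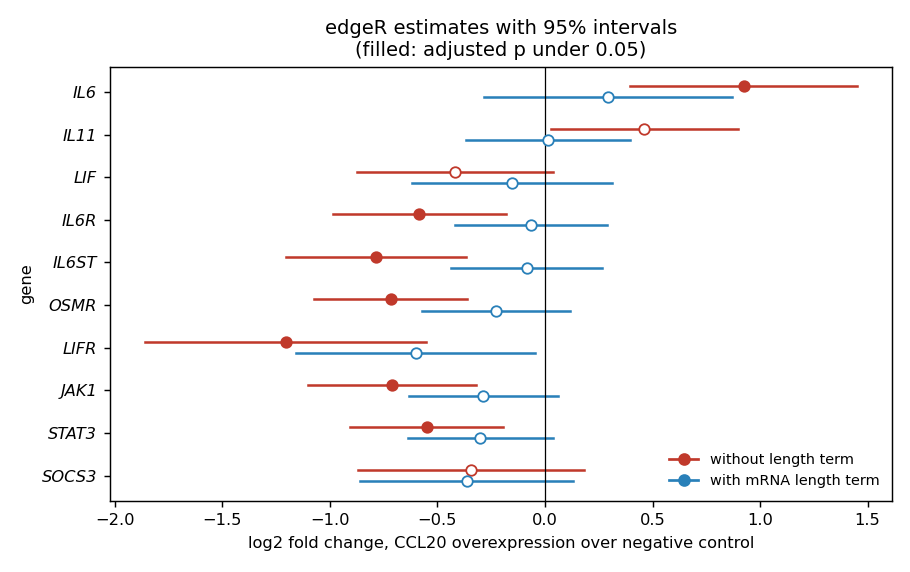
Log2 fold change of the 10 genes, CCL20 overexpression over negative control, as points with 95% intervals, without (red, upper) and with (blue, lower) the mRNA length term. Filled points have an edgeR adjusted p under 0.05: 7 of 10 without the term and 0 with it, where the interval of LIFR alone stays off 0.

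The order of the levels also differed between the groups. In the CCL20 libraries, by mean FPKM, it ran IL6 (23.1 ± 6.29), OSMR (19.3 ± 0.759), JAK1 (17.1 ± 3.17), IL11 (15.2 ± 1.70), STAT3 (14.4 ± 0.638), IL6ST (10.8 ± 2.52), SOCS3 (9.29 ± 2.29), LIF (8.96 ± 1.52), IL6R (7.30 ± 1.34) and LIFR (2.15 ± 1.02; SD, n = 2 each). Neighbours in this order overlapped in their library values except STAT3 above IL6ST and IL6R above LIFR. In the controls it ran OSMR (36.6 ± 0.908), JAK1 (32.1 ± 0.174), STAT3 (24.3 ± 0.332), IL6ST (21.4 ± 0.708), IL6 (14.0 ± 2.90), LIF (13.9 ± 0.165), SOCS3 (13.7 ± 0.224), IL11 (12.8 ± 0.626), IL6R (12.6 ± 0.777) and LIFR (5.64 ± 0.695; SD, n = 2 each). The first 4 were separate from each other and from the rest, as was LIFR, while the values of IL6 spanned those of LIF, SOCS3, IL11 and IL6R. OSMR was the highest of the 4 receptor chains and LIFR the lowest in both groups.

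The members with positive fold changes had the shortest mRNAs of the 10. IL6 and IL11, with mRNAs of 1354.5 and 1741 nt, were in deciles 2 and 3 of coding genes by length, where the median log2 fold changes were 0.61 and 0.38. IL6R and OSMR were in decile 9 and IL6ST and LIFR in decile 10, where the medians were -0.54 and -0.73. JAK1 was in decile 8, STAT3 and LIF in decile 7 and SOCS3 in decile 5, with medians of -0.39, -0.23 and 0.04. LIFR lay furthest below the median of its decile. With the length taken from the union of exons, 0 members passed as well, where 15.9% of the 12168 genes did (9.95% higher and 5.93% lower), and 5 had an unadjusted p under 0.05 in edgeR; SOCS3 was then at -0.73 (edgeR adjusted p = 0.0513) and STAT3 at -0.16 (edgeR adjusted p = 0.492). The lengths are medians over the annotated principal transcripts, which need not be those expressed.

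**Figure D3:**
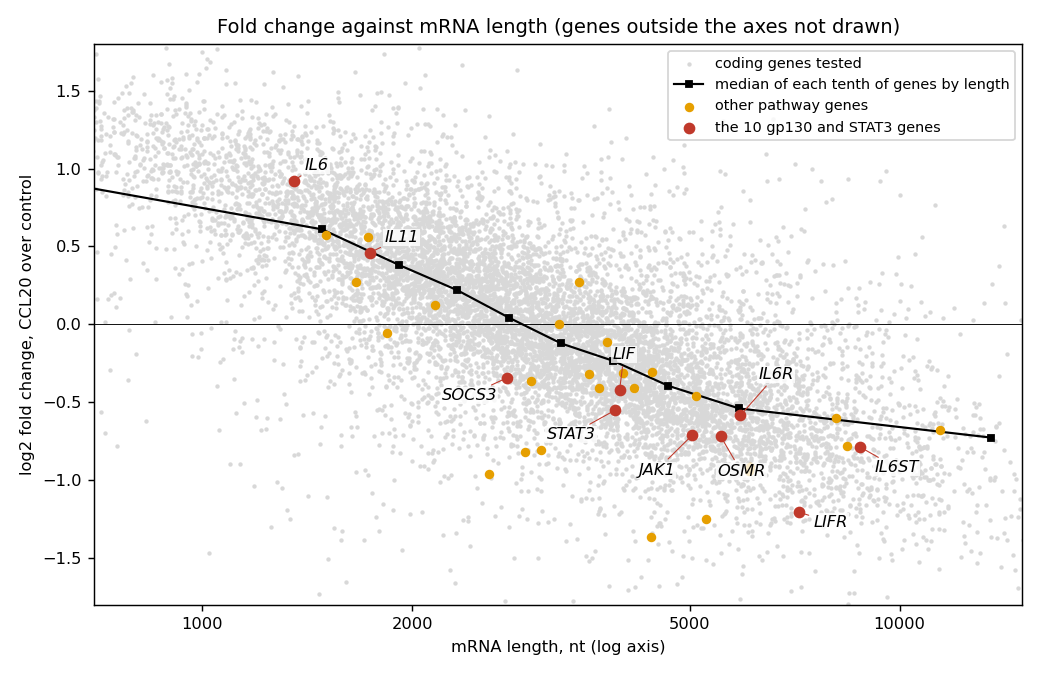
Log2 fold change against mRNA length in nt (log axis) for coding genes tested (grey), the other pathway genes (orange) and the 10 genes described here (red, named), with the median of each decile of coding genes by length (black). The 10 genes tend to fall with length as the medians do, with IL6 highest at 0.92 and LIFR lowest at -1.21. Some lie off the medians: LIFR is below its decile's -0.73, and SOCS3 is at -0.34 where its decile has 0.04.

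Beside these 10, a list of 34 other pathway genes was examined, of which 32 had a row and 25 passed the filter of a mean of at least 1 FPKM. Of these 25, 0 rose and 9 fell, where 16.5% and 15.7% of all genes tested did, so the number called in either direction was near the 32.2% of all genes. The median log2 fold change was -0.41, against 0.0019 over all genes tested. The length term left 0 higher and 2 lower, where 3.63% and 3.19% of coding genes were, again near the 6.82% called in either direction, with a median of -0.12. DESeq2 called 10, also all lower. Neither the 2 other ligands tested nor the 3 other receptors passed in edgeR; 0 of the ligands and 1 of the receptors had an unadjusted p under 0.05, and DESeq2 called 0 and 1. CLCF1, a ligand of the CNTF receptor complex, had 4.42 and 3.03 FPKM with CCL20 and 4.48 and 4.39 FPKM in the controls (log2 fold change -0.06, edgeR adjusted p = 0.877). IL31RA, the partner chain of OSMR for interleukin-31, had 1.17 and 1.33 FPKM with CCL20 and 3.66 and 2.01 FPKM in the controls (-0.96, edgeR adjusted p = 0.0505). OSM, the ligand of OSMR, had 0 and 1 counts with CCL20 and 1 and 0 in the controls.

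Of the 5 other kinases and STATs, JAK2 fell, to 1.25 and 0.634 FPKM with CCL20, against 2.65 and 2.44 FPKM in the controls (log2 fold change -1.25, edgeR adjusted p = 0.0168). Of 5 adaptors tested, which carry the receptor signal towards ERK and PI3 kinase, 4 fell. SHC1, an adaptor of receptor phosphotyrosines, had 16.5 and 16.7 FPKM with CCL20, against 32.1 and 34.8 FPKM in the controls (-0.81, edgeR adjusted p = 0.0101). PTPN11, the phosphatase SHP2 that docks on gp130, had 35.0 and 22.4 FPKM with CCL20, against 62.0 and 61.8 FPKM in the controls (-0.91, edgeR adjusted p = 0.0136). SOS1, a guanine nucleotide exchange factor for RAS, fell by 0.78 (edgeR adjusted p = 0.0141) and GAB2, a docking protein named after its values were seen, by 0.94 (edgeR adjusted p = 0.0204).

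Among 7 inhibitors tested, PIAS3, a SUMO ligase known as an inhibitor of STAT3, fell, with 5.22 and 4.50 FPKM with CCL20, against 9.80 and 9.96 FPKM in the controls (log2 fold change -0.82, edgeR adjusted p = 0.0117). Its relative PIAS1 fell by 0.60 (edgeR adjusted p = 0.0270). Of the 3 genes of receptor shedding, the metalloproteases ADAM17, which cleaves IL6R from the surface, and ADAM10 fell. ADAM17 had 3.74 and 1.59 FPKM with CCL20, against 8.29 and 7.30 FPKM in the controls (-1.36, edgeR adjusted p = 0.0168), and ADAM10 fell by 0.68 (edgeR adjusted p = 0.0344). In the fit with the length term the calls of JAK2, PTPN11, SOS1, GAB2, PIAS1, ADAM17 and ADAM10 ended (edgeR adjusted p from 0.0809 to 0.820). They did so at unlike sizes: ADAM17 was still at -1.04 and JAK2 at -0.80, PTPN11 was at -0.39 and GAB2 at -0.38, and SOS1, PIAS1 and ADAM10 were at -0.08, 0.08 and 0.11. SHC1 at -0.74 and PIAS3 at -0.79 were still past the threshold (edgeR adjusted p = 0.0299 for each). Their mRNAs, of 3062 and 2901 nt, lie where the length curve is near 0, at -0.06 and -0.02. By union exon length 4 genes passed: SHC1 and PIAS3 (-0.88 and -0.80, edgeR adjusted p = 0.0133 and 0.0215), JAK2 (-1.03, edgeR adjusted p = 0.0471) and, higher with CCL20, PTPN2, a phosphatase of JAK and STAT proteins named after its values were seen (0.66, edgeR adjusted p = 0.0294).

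Of 30 genes listed as STAT3 targets, 29 had a row and 26 were tested. Among these 4 rose and 3 fell, near or below the 16.5% and 15.7% of all genes tested, and the median log2 fold change was 0.15, against 0.0019 over all genes tested. SAA1, an acute-phase protein whose near-identical paralog SAA2 may share reads with it, had 45.7 and 53.6 FPKM with CCL20, against 21.8 and 17.2 FPKM in the controls (log2 fold change 1.56, edgeR adjusted p = 0.00434). TIMP1, an inhibitor of matrix metalloproteases, had 74.2 and 99.4 FPKM with CCL20, against 40.3 and 44.2 FPKM in the controls (1.25, edgeR adjusted p = 0.00602). BIRC5, the gene of survivin, rose by 0.57 (edgeR adjusted p = 0.0272), as did BCL2L1, a survival factor of the BCL2 family named after its values were seen, by 0.54 (edgeR adjusted p = 0.0401).

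CCND1, the gene of cyclin D1, had 28.2 and 23.0 FPKM with CCL20, against 55.5 and 56.9 FPKM in the controls (log2 fold change -0.93, edgeR adjusted p = 0.00652). ICAM1, an adhesion receptor for leukocytes, had 32.6 and 31.2 FPKM with CCL20, against 66.3 and 64.0 FPKM in the controls (-0.83, edgeR adjusted p = 0.00803). KLF6, a transcription factor, fell by 0.58 (edgeR adjusted p = 0.0373). After the length term 0 targets were higher and 4 were lower, where 3.63% and 3.19% of coding genes were, and the list's median was -0.07. Of the higher ones, BIRC5 and BCL2L1 changed little in size, to 0.52 and 0.48 (edgeR adjusted p = 0.0731 and 0.108), while SAA1 was at 0.57 and TIMP1 at 0.36 (edgeR adjusted p = 0.102 and 0.241). Those lower were ICAM1 (-0.71, edgeR adjusted p = 0.0289), CCND1 (-0.61, edgeR adjusted p = 0.0465) and 2 genes named after their values were seen, MYC (-0.73, edgeR adjusted p = 0.0299) and VEGFA (-1.19, edgeR adjusted p = 0.0212). The lengths used for MYC and VEGFA, 1365 and 1199 nt, are far below their union exon lengths of 3001 and 14431 nt. With union exon length their log2 fold changes were -0.44 and 0.12 (edgeR adjusted p = 0.0846 and 0.634), whereas ICAM1 and CCND1 passed there too (-1.05 and -0.90, edgeR adjusted p = 0.00881 and 0.0127). In that fit 3 targets were higher, SAA1 (1.17, edgeR adjusted p = 0.0122), TIMP1 (0.77, edgeR adjusted p = 0.0288) and IRF1, a transcription factor of the interferon response named after its values were seen (0.74, edgeR adjusted p = 0.0249). BIRC5 and BCL2L1 were smaller there, at 0.38 and 0.24 (edgeR adjusted p = 0.114 and 0.297).

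**Figure D4:**
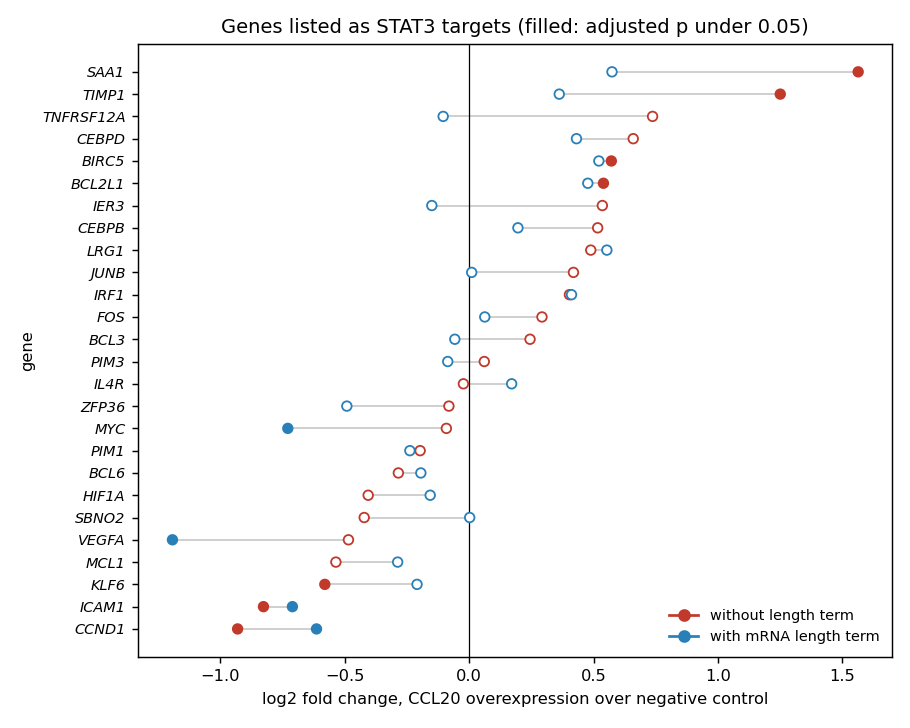
Log2 fold change, CCL20 overexpression over negative control, of the 26 tested genes listed as STAT3 targets, ordered by the estimate without the length term (red) and joined to the estimate with it (blue). Filled points have an edgeR adjusted p under 0.05: 4 genes to the right of 0 and 3 to the left without the term, and 4 to the left with it.

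How many members were called in each direction varied with the normalization. TPM scaling put the median over all genes at -0.49 on the log2 scale and split the calls into 500 higher and 4516 lower, in place of 2010 and 1905, and of the 10 members 0 were higher and 8 lower. Scaled by total count, with a median of -0.20 over all genes, 1 member was higher and 7 were lower, and with limma on log2(FPKM + 1), with a median of -0.17, 0 were higher and 7 lower. The falls of IL6R, IL6ST, OSMR, LIFR, JAK1 and STAT3 were past the threshold on each of these scales. Among the 26 targets, 2 were higher and 10 lower on the TPM scale, with a median of -0.36, and scaled by total count 2 were higher and 7 lower, with a median of -0.06, so the sign of their median turned.

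By distance of centred log2 CPM over the 4 libraries, the coding genes with the pattern most like that of IL6ST were DNAJC16, HEATR6 and KANSL1, at distances of 0.0142, 0.0234 and 0.0285. For STAT3 they were RFX5, BVES and DCAF7, at 0.0240, 0.0296 and 0.0331. Similar patterns are common over so few libraries. Within a wider distance of 0.2, 419 of the 10572 coding genes lay around IL6ST and 488 around STAT3. How many lay as close as the genes named was not counted.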

How the data were processed

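Each of the 4 CAL27 libraries was made from 1.5 µg of RNA, according to the protocols in the labels. HISAT2, HTSeq 0.13.5 and GRCh38 are listed in the submitters' processing notes, while for the strand setting and the annotation nothing was found in the labels or notes. The deposited counts are whole reads per gene. Deposited beside them by the authors, FPKM is the count scaled by union exon length and library total. Identifiers were matched to GENCODE 29 for positions and mRNA lengths.

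Counts were tested with the two-sided quasi-likelihood test of edgeR 4.0.16 in R 4.3.3, with TMM normalization and p-values adjusted by Benjamini-Hochberg over the 12168 genes whose FPKM averaged 1 or more (threshold 0.05). The length term is a natural spline with 5 degrees of freedom per library, entered as an offset, over 10572 coding genes. Alternatives used DESeq2 1.42.0 and limma 3.58.1. The fits were also run on simulated data with the same dispersion in all libraries and a length trend linear in log length. That run therefore does not show how they behave under the unequal spread of the pairs here. The chi-square per gene between replicates was 38.0 in the CCL20 pair and 6.45 in the control pair, above sampling noise, so no library is a duplicate. The members, lists and length terms were chosen with earlier results of these data known. Named are all members, up to 3 genes in each direction of each list, by smallest adjusted p, or its highest member where none passed. OSM and the genes marked as named after their values were seen are given outside this rule. The 6 pathway lists and the targets hold genes by textbook role.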

Additional observations from a re-analysis of the deposited data

How the results depend on the processing

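With 2 libraries per group, the number of calls varied with the library left out. Leaving out 1 library gave 650 to 7579 genes called (3915 with all), 0 to 9 members (7), 1 to 17 other pathway genes (9) and 1 to 18 targets (7); with the length term as well, an alternative chosen after seeing the data, these ranges were 133 to 4742 (179 without control replicate 2), 0 to 5, 0 to 11 and 0 to 19 (13 without CCL20 replicate 2). Without control replicate 1 no member passed and without control replicate 2 only LIFR did; the remaining control library then has no partner, and the spread comes from the CCL20 pair. The mRNA length offset gave 721 genes, 0 members, 2 pathway genes and 4 targets, and an offset for union exon length gave 1932 genes, 0 members, 4 pathway genes and 5 targets. Pathway genes called numbered 14 when scaled by total count and 16 on the TPM scale, where targets numbered 12, and at a threshold of 0.1 targets numbered 14. DESeq2, DESeq2 size factors, edgeR's own filter and coding genes only (also added later) kept each of these 4 counts within 1.5 times. A replicate block gave 16 targets and 9 members, adding LIF and IL11; with the length offset the block gave 2066 genes, 1 member (LIFR, edgeR adjusted p = 0.00474) and 5 pathway genes. The labels share only a number between groups, and the deviations of the first replicates correlated at 0.27 across genes. Directions of the members held in all alternatives except IL11 on the TPM scale (-0.042) and, with the length offset and 1 library left out, IL11 (-0.088 to 0.11, and -0.024 without control replicate 1), IL6 (-0.053 to 0.58), IL6ST (-0.18 to 0.0046) and LIF (-0.44 to 0.083). Without the offset these 4 ranged from 0.29 to 0.61, 0.68 to 1.15, -0.99 to -0.61 and -0.66 to -0.22. The causes of these changes were not tested.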

Other observations

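Ratios of FPKM within a library do not depend on how libraries are scaled, though they do depend on length. IL6 over IL6ST, the ligand over its signalling chain, was 2.18 and 2.06 in the CCL20 libraries, against 0.729 and 0.568 in the controls. IL6ST over IL6R, the 2 chains of the interleukin-6 receptor, was 1.53 and 1.43 in the CCL20 libraries, against 1.67 and 1.74 in the controls. OSMR over LIFR, the alternative partners of gp130 for oncostatin M, was 6.92 and 13.2 in the CCL20 libraries, against 6.08 and 6.98 in the controls, so the first CCL20 library lay within the range of the controls. STAT3 over JAK1 was 0.766 and 0.936 in the CCL20 libraries, against 0.745 and 0.765 in the controls. SOCS3 over STAT3, the inhibitor over its inducer, was 0.517 and 0.783 in the CCL20 libraries, against 0.563 and 0.565 in the controls, with the controls between the CCL20 values. These ratios were not tested.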
